A study of Mus musculus with 2 samples.

Results

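The Notch receptors Notch1 to Notch4, their ligands Jag1, Jag2 and Dll1, the DNA-binding factor Rbpj and the target genes Hes1 and Hey1 were followed in cultured mouse chondrocytes that were mechanically stretched, with a first reading before loading and another 24 h later. These 10 genes were chosen by name, and their probes were found through the RefSeq transcript that each probe carries, among 20660 genes with such a probe. The primary chondrocytes were taken from C57BL/6J mice of 6 days of age, and the labels name no engineered allele. They had been seeded 48 h earlier on fibronectin in elastic silicon chambers. The array before loading held RNA of cells that had not been stretched. The array at 24 h held RNA of cells stretched cyclically by 10% at 0.5 Hz over 30 min and then left in culture. With 1 one-colour Agilent array per time point there was no replicate, which leaves every difference reported here untested. The control was taken before loading, and therefore stretch and the additional 24 h in culture cannot be told apart. The labels do not say how many animals gave the cells.

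Notch receptors sit in the cell membrane and are bound by Jagged or Delta-like ligands on a neighbouring cell. Binding allows a metalloprotease and then the gamma-secretase complex to cut the receptor, and the freed intracellular domain moves to the nucleus, where it joins Rbpj and Mastermind-like coactivators and switches on genes such as Hes1 and Hey1, which themselves encode transcriptional repressors. In cartilage the pathway is known to restrain early chondrocyte differentiation and to take part in hypertrophy and matrix breakdown. Much of it acts through protein cleavage, which an array does not measure.

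The values are fluorescence intensities after background subtraction, and the log2 ratio is the value at 24 h minus that before loading, each set relative to the 75th percentile of its array. The error beside a ratio combines the scanner software's error of both spots and covers error within the arrays only, not the spread between cultures. The 2 arrays shared a slide. The scanner software called 59.14% of 59305 spots well above background on the earlier array and 57.66% on the later one, and 0 were saturated. All 10 listed chondrocyte markers, among them Col2a1 and Acan, passed that call at both time points, and none passed 2-fold, with Matn1 at a log2 ratio of 0.56 and Chad at -0.86 beyond 2 errors. In bulk RNA, fewer cells of a type and less RNA per cell cannot be told apart.

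Of the 10 Notch genes, 9 were detected, which means well above background at both time points, and Dll1 was not at either. None of the 9 differed by more than 2-fold at 24 h. Among all 14231 detected genes, 0.668% passed 2-fold upwards and 1.83% downwards. Hey1 was higher by more than 2 within-array errors and Hes1 lower, so that the target genes lay on opposite sides, while the other 7 detected genes stayed within 2 errors. The same limit was passed upwards by 7.24% and downwards by 9.12% of all detected genes. With 1 of 9 in each direction, these counts are close to the background and are no result about the genes as a group. The 9 genes had a median log2 ratio of -0.10 beside -0.01 over all detected genes, and their median distance from 0 was 0.17 beside 0.18. The middle of all detected genes, from the lower to the upper quartile, ran from -0.20 to 0.16, which leaves Jag1, Jag2, Hes1, Hey1 and, just above the upper quartile, Rbpj outside it.

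**Figure D1:**
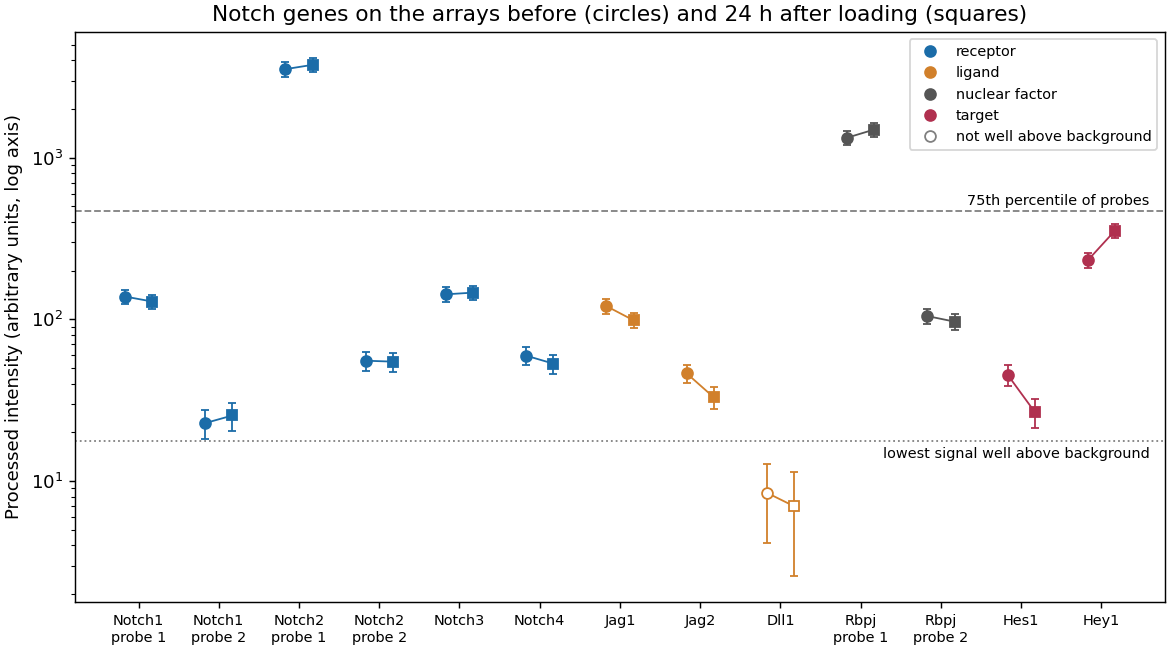
Intensity in arbitrary units, on a log axis, of each probe of the Notch genes before loading (circles) and 24 h after it (squares), coloured by role, with 1 point per array and bars of the scanner software's error (dashed line, 75th percentile; dotted line, dimmest signal called well above background; open points, not well above background); levels of different probes are not comparable with each other. Hes1 lies lower and Hey1 higher at 24 h, and Dll1 lies under the level of the dimmest spots called well above background on both arrays.

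Among the receptors, all 4 were detected and none differed between the time points by as much as 1 within-array error. Notch1, known in cartilage for its role in progenitor-like surface cells, read 138 before loading and 129 at 24 h on its brightest probe. Its log2 ratio was -0.10 with an error of 0.21. A second Notch1 probe read 22.8 and 25.4, with a ratio of 0.16 and an error of 0.41, so that the probes lay on either side of 0 and both were within their errors.

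Notch2, which shares its domain layout with Notch1, read 3529 before loading and 3753 at 24 h on its brightest probe, a ratio of 0.09 with an error of 0.20. Its second probe read 55.5 and 54.8, a ratio of -0.02. Notch2 was the only receptor above the 75th percentile of the arrays, and it showed no difference beyond the error on either probe. Notch3, best known from vascular smooth muscle and pericytes, read 143 and 146, with a ratio of 0.04 and an error of 0.21. Notch4, best known from endothelium, read 59.6 and 53.2, with a ratio of -0.16 and an error of 0.26. The receptor ratios thus spanned -0.16 to 0.09, which lies inside the middle of all detected genes.

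Since Notch3 and Notch4 are known from vessels, markers of vascular cells were read beside them. Of 8 endothelial markers 3 were detected, Pecam1, Kdr and Vwf, while Cdh5, Tek, Tie1, Emcn and Cldn5 were not detected. The summed endothelial intensity was 12959 before loading and 12557 at 24 h. Nearly all of it came from 1 Kdr probe, at 12774 and 12375, whereas the other Kdr probe read 5.20 and 6.15 and was not above background. Kdr encodes VEGFR2, which the paper examined as a receptor for gremlin-1 in its cartilage work. Which cells gave the Kdr signal was not tested. Of 7 smooth muscle and pericyte markers 4 were detected, Acta2, Cnn1, Pdgfrb and Cspg4, with a summed intensity of 38662 and 34040. Acta2, a contractile actin, read 11034 and 7739, with a ratio of -0.51 and an error of 0.20, beyond 2 errors, and the other 3 lay between -0.11 and -0.06, within their errors. The defining markers Myh11 and Rgs5 were not well above background. Of the other cell types looked at, 4 of 6 listed macrophage, 5 of 6 skeletal muscle and 7 of 7 fibroblast and perichondrium markers were detected, and none passed 2-fold on its brightest probe. Beyond 2 errors were the macrophage marker Lyz2 at 0.46, the muscle markers Myh3 at 0.64 and Tnnt3 at -0.78, which was 2.01-fold lower on its second probe, and the perichondrial Postn at 0.43. The part of these cells in the Notch values was not tested.

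The ligands Jag1 and Jag2, membrane proteins that bind Notch receptors on the adjacent cell, were both lower at 24 h, by less than 2 errors each. Jag1 read 121 before loading and 98.6 at 24 h, 1.22-fold lower, with a log2 ratio of -0.29 and an error of 0.22. Jag2 read 46.4 and 32.9, 1.41-fold lower, with a ratio of -0.50 and an error of 0.29. Both lay under the lower quartile of all detected genes. At a brightness like that of Jag2, 34 probes that the array carries in many copies had a median SD of 0.32 between the ratios of their copies, and 52 such probes near Jag1 had 0.16. Of the 322 spots of these probes, 39 lay as far from their own probe's mean as the Jag2 ratio from 0, and for Jag1 it was 47 of 496 spots. A minority of single spots thus lay that far off. For both genes the ratio was larger than the median SD between copies, which covers error within the arrays only and does not show a difference between the time points.

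Dll1, a Delta-like ligand, was the 1 gene of the 10 with repeated spots. Of its 10 spots 3 were marked as outliers on an array and 7 were kept. Their intensities ran from 4.78 to 12.95, with a median of 8.19, before loading and from 4.39 to 12.13, with a median of 6.34, at 24 h. None of the 7 spots was called well above background at either time point, the ranges overlapped almost fully, and no fold is given.

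Rbpj, the factor that carries the Notch signal to DNA, read 1329 before loading and 1494 at 24 h, with a ratio of 0.17 and an error of 0.20. The second Rbpj probe read 105 and 96.8, with a ratio of -0.11 and an error of 0.22. The range of 0.28 between these probes was above the median of 0.19 over 3635 genes with more than 1 detected probe, and neither probe was beyond its error.

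Hes1, a repressor of the Hes family and a direct target of Notch in many tissues, had the lowest ratio among the 9 detected genes. It read 45.5 before loading and 26.7 at 24 h, 1.70-fold lower. The log2 ratio was -0.77 with an error of 0.36, and the interval of 2 errors on each side ran from -1.48 to -0.05. The value at 24 h was close to the dimmest spots called well above background there, which lay at 17.8. Among 33 repeated probes of like brightness the median SD between copies was 0.33, and 7 of their 312 spots lay as far from their own probe's mean as Hes1 from 0. Under another background correction the ratio was -0.35. That correction adds an offset of 50 to every intensity, which by construction draws ratios of dim probes towards 0. Under each of the 4 other scalings of the arrays the difference was within 2 errors. Hes1 had 1 probe with 1 spot, so that no other reading on these arrays bears on it. Of 19 spots within 100 µm of it 1 was more than 2-fold lower and 0 higher.

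Hey1, a related repressor that forms dimers with Hes proteins, had the highest ratio. It read 232 before loading and 354 at 24 h, 1.53-fold higher, with a log2 ratio of 0.61 and an error of 0.21. The interval of 2 errors on each side ran from 0.20 to 1.03. At this brightness 50 repeated probes had a median SD of 0.12 between copies, and 0 of their 476 spots lay as far from their own probe's mean. Hey1 stayed beyond 2 errors in every alternative run, with ratios from 0.48 to 0.71. For its single spot, the authors' table, the mean over probes and kept outlier spots gave nearly the same ratio by construction. Of 13 spots nearby 1 was more than 2-fold lower and 0 higher. Hey1 also had 1 probe with 1 spot. The 2 target genes thus differed in opposite directions, Hey1 with the firmer within-array reading, and whether either difference exceeds the spread between cultures cannot be known from 1 array per time point.

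**Figure D2:**
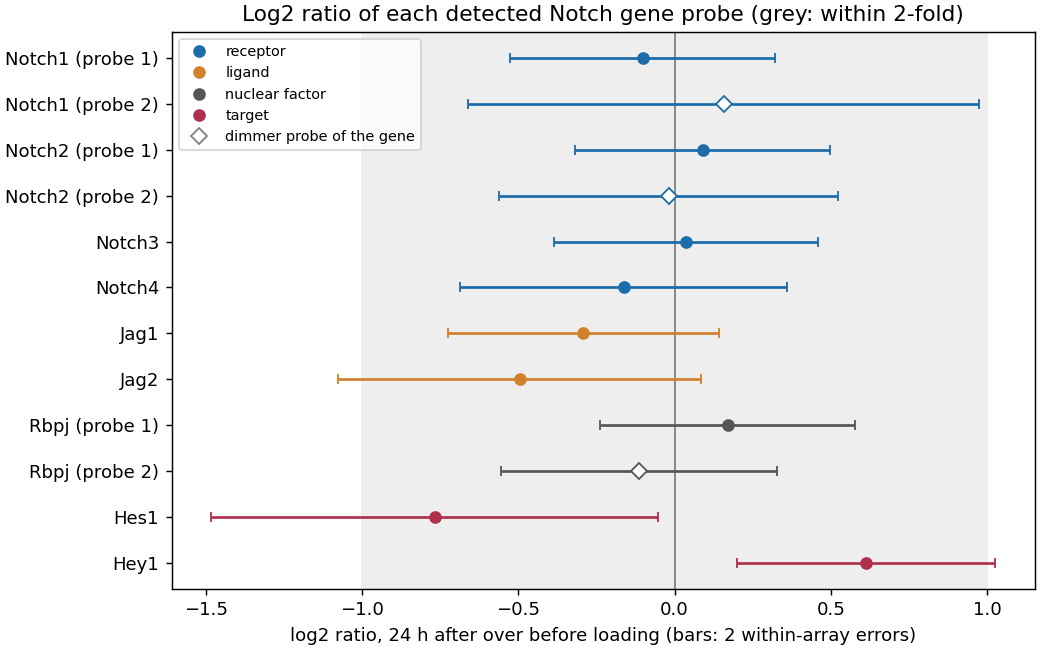
Log2 ratio of 24 h over before loading for every detected probe of the Notch genes, with bars of 2 within-array errors a grey area for values within 2-fold and open diamonds for a gene's dimmer probe. Only the bars of Hes1, at -0.77, and Hey1, at 0.61, do not reach 0.

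**Figure D3:**
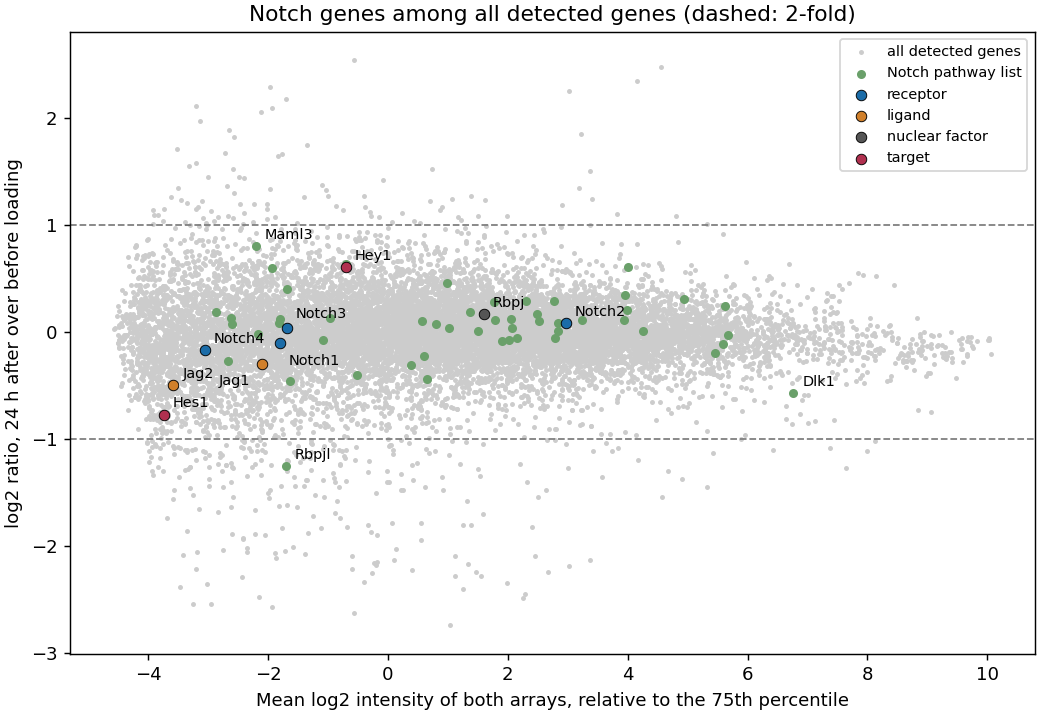
Log2 ratio against the mean log2 intensity relative to the 75th percentile for all genes detected on both arrays (grey), the other Notch pathway genes (green) and the Notch genes coloured by role; dashed lines mark 2-fold. The Notch genes lie within 2-fold, and Rbpjl is the green point beyond it.

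A hand-written list of 62 other genes of the pathway was read in the same way. Probes of 59 of these were analysed here, and 51 were detected on both arrays. None passed 2-fold upwards and 1, Rbpjl, did so downwards, beside 0.668% and 1.83% of all detected genes. With 1 of 51, this is close to the background share. Beyond 2 within-array errors, 5 were higher and 4 lower, and 42 were within, beside the shares of all genes given above. The median ratio of the 51 genes was 0.09, and 34 lay above 0, where 47.6% of all detected genes did. The 34 became 41 under median or spike-in scaling and 32 with the mean over probes. The 47.6% holds for the reported processing only. Median and spike-in scaling raise every ratio, by 0.10 and 0.09, and the share of all genes above 0 under them is not given here. The calls of Dtx1 and Fbxw7 ended under median and spike-in scaling and normexp background correction. That of Dtx1 also ended under quantile normalization and that of Fbxw7 as the mean over its probes. Those of Poglut1 and Kat2b ended under normexp correction. Calls were gained by Maml2 under median, quantile, loess and spike-in scaling, by Furin under median and spike-in scaling and by Psenen under median scaling. The mean over probes added Aph1a, and looser filters on dim probes added Dner.

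Rbpjl, a relative of Rbpj known mainly from the pancreas that binds the same DNA but not the Notch domain, read 221 before loading and 92.7 at 24 h, 2.38-fold lower. Its ratio was -1.25 with an error of 0.22. None of 495 spots of 52 repeated probes of like brightness lay as far from its own probe's mean, and of 14 spots near it 1 was more than 2-fold lower. Rbpjl had 1 probe with 1 spot, so that no other reading on these arrays bears on it. It was also singled out as the lowest ratio of the list. Rbpjl differed in direction from Rbpj, whose brightest probe was at 0.17. With the background correction that adds an offset of 50 to every intensity, the Rbpjl ratio was -0.83, which is less than 2-fold.

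Of the other ligands, Dlk1, a non-canonical ligand that lacks the receptor-activating domain and marks immature mesenchymal cells, read 61754 before loading and 41599 at 24 h. Its ratio was -0.57 with an error of 0.20, and its second probe gave -0.51. Both probes were beyond 2 errors and in the same direction. Dll3 read 80.5 and 66.9, a ratio of -0.27 with an error of 0.23, while a second Dll3 probe read 16.6 and 27.0 and was well above background only at 24 h. Dll4 was not detected, at 12.1 and 13.4. Dner, an atypical ligand known from neurons, read 34.3 before loading and 15.5 at 24 h, where it was not well above background. Set against the dimmest signal called well above background at 24 h, the signal before loading was 1.92-fold higher. This is not a firm bound, since the call is made spot by spot and the spot errors of 5.49 and 4.64 are left out. Jag1, Jag2, Dll3 and Dlk1, the 4 detected ligands, had ratios under 0, as 52.4% of all detected genes did, and of these only Dlk1 passed 2 errors.

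Of the 12 detected genes that glycosylate or cut the receptors, Pofut1 and Poglut1 were higher beyond 2 errors and the other 10 were within. Pofut1, which adds the O-fucose that Notch needs to bind its ligands, read 6041 before loading and 9249 at 24 h, with a ratio of 0.62 and an error of 0.20, and its second probe gave 0.26. Poglut1, which adds O-glucose to the same repeats, read 788 and 1087, with a ratio of 0.46 and an error of 0.20. The fringe genes, which lengthen the O-fucose and so shift the choice of ligand, did not differ beyond the error on their brightest probes: Rfng was at 0.09 and Mfng at -0.07, and Lfng was not detected. Of the 8 detected proteases and gamma-secretase subunits 7 had ratios above 0, with a median of 0.23, beside 47.6% of all detected genes. The 7 became 8 under median and spike-in scaling, which raise the ratios of all genes alike, and 6 with the mean over probes. Under median scaling the protease Furin and the subunit Psenen passed 2 errors, and Furin did also under spike-in scaling. As reported, none passed 2 errors on its brightest probe. A second probe of Aph1a, a scaffold subunit of gamma-secretase, did so, at 190 before loading and 290 at 24 h, with a ratio of 0.61 beside 0.28 on the brightest. The 5 detected subunits of gamma-secretase, the membrane complex that frees the intracellular domain, had ratios from 0.11 to 0.31 on their brightest probes. Each was within 2 errors as reported. Averaged over both of its probes, Aph1b turned to the other side of 0. Psenen, a small subunit, read 12779 and 15879, with a ratio of 0.31, and 0.35 on its second probe. Adam10, the metalloprotease that makes the earlier cut, was at -0.05.

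Genes of receptor and ligand turnover went both ways. Dtx3, a Deltex family ubiquitin ligase, read 231 before loading and 361 at 24 h, with a ratio of 0.64 and an error of 0.21. Its relative Dtx1 read 177 and 129, with a ratio of -0.46 and an error of 0.21, and Dtx4 read 377 and 285, with a ratio of -0.40 and an error of 0.21. The Deltex genes thus lay on both sides of 0. Fbxw7, the F-box protein that marks the intracellular domain for degradation, read 855 and 630, with a ratio of -0.44 and an error of 0.20, and its second probe gave -0.12. Of 4 detected genes that drive ligand endocytosis, 3 were under 0, beside 52.4% of all detected genes. None passed 2 errors on its brightest probe, while the second probe of Neurl1a, a Neuralized ubiquitin ligase, was at -0.51.

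In the nucleus, Maml3, a Mastermind-like coactivator, read 76.6 before loading and 134 at 24 h, with a ratio of 0.81 and an error of 0.22. Its other 2 probes were not well above background, and 2 of 488 spots of like brightness lay as far from their own probe's mean. Kat2b, a histone acetyltransferase, read 98.9 and 150, with a ratio of 0.60 and an error of 0.22. The coactivator Kat2a was at 0.12 on its brightest probe, within its error. Its second probe was at 0.50 with an error of 0.23, beyond 2 errors. Of the 8 detected coactivators 7 had ratios above 0, with a median of 0.15, beside 47.6% of all detected genes. The 7 became 8 under median and spike-in scaling, which raise the ratios of all genes alike. The 10 corepressors, all detected, had a median of 0.06 and lay between -0.11 and 0.12, so that none was beyond 2 errors on its brightest probe. Fainter probes of the corepressors Ncor1 and Tle1 were, with ratios up to 0.44 and 0.42.

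**Figure D4:**
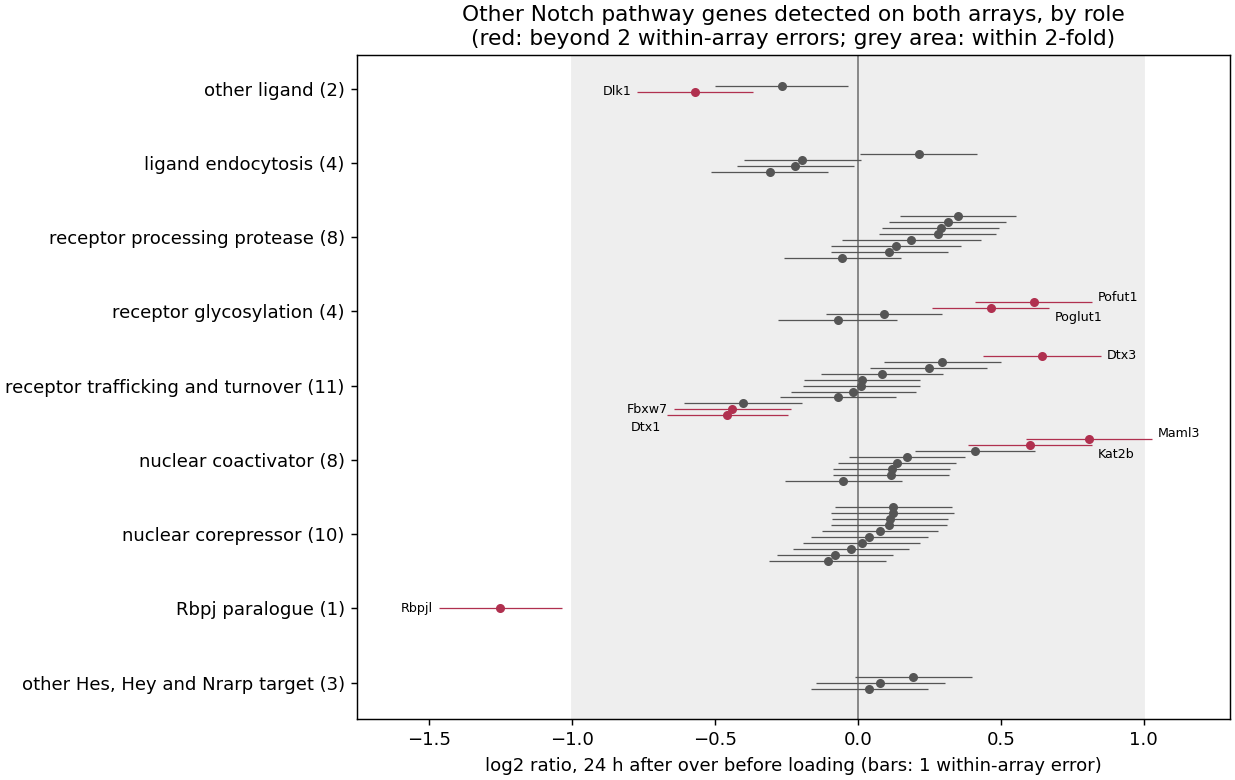
Log2 ratio of 24 h over before loading for the 51 detected genes of the pathway list, grouped by role with the number detected, with bars of 1 within-array error; red points lie beyond 2 errors and the grey area is within 2-fold. The 9 red points are 5 higher and 4 lower genes, and Rbpjl alone lies outside 2-fold.

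The remaining Hes and Hey genes did not show the differences of Hes1 and Hey1. Hes2 read 74.5 and 78.6, with a ratio of 0.08. Hes6, which counters Hes1 in several tissues, read 1122 and 1283, with a ratio of 0.19 and an error of 0.20, and Hes7 read 929 and 955, with a ratio of 0.04. All 3 were within their errors. Hes3, Hes5, Hey2, Heyl and Nrarp, the last a feedback inhibitor, gave no signal well above background at either time point, with intensities up to 17.65. Thus 5 of these 8 genes gave no ratio.

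The letters of Rbpj's binding motif were searched in the 250 bases before each start of each gene, as RefSeq gives them on GRCm38.p6. The core searched was TGGGAA on both strands, held by 21.6% of 32851 promoters, and a longer form GTGGGAA that contains it was held by 5.42%. Of the 10 Notch genes 8 have an entry there, all but Hes1 and Hey1. Only Rbpj held the core, in both of its promoters, and none held the longer form. These promoters overlap, so that the match at -205 in the downstream promoter is the same site as that at -65 in the upstream promoter. Of the 62 other pathway genes 49 had an entry, 16 with the core and 7 with the longer form in at least 1 promoter. Per promoter, since a gene can have several starts, 25% of their 64 promoters held the core and 10.9% the longer form. The 7 genes were Hes5, Hes7, Hey2, Lfng, Psen2, Rbpjl and Spen. Shown are the more upstream promoter of Rbpj, as the 1 Notch gene with a match, Rbpjl, as the 1 pathway gene beyond 2-fold, and Hes7, as a detected Hes gene with the longer form. Each reads 5′ to 3′ on the plus strand, which is the strand of all 3 genes, and capitals mark TGGGAA or its reverse complement TTCCCA. They lie at chr5:53590096-53590345, chr2:164402944-164403193 and chr11:69120203-69120452.
Rbpj: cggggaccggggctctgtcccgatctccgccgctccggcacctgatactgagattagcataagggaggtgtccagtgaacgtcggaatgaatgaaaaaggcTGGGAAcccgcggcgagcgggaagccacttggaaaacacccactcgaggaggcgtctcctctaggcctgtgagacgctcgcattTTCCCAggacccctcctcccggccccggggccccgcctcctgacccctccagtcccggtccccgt
Rbpjl: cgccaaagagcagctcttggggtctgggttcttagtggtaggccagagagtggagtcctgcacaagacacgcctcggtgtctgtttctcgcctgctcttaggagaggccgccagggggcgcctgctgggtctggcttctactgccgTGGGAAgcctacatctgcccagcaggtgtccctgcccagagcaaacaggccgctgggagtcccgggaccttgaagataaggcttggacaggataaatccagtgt
Hes7: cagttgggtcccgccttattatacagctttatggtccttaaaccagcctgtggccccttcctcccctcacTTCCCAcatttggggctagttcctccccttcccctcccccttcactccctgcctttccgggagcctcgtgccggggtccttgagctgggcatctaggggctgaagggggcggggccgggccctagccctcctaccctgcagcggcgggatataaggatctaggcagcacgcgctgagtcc
This Rbpj promoter held the core at -149 and -65 from the start, counted to its base nearest the upstream end. In Rbpjl it lay at -104 and in Hes7 at -180. Of the 7 genes with the longer form 4 were detected, with log2 ratios of -1.25 for Rbpjl, 0.04 for Hes7, 0.04 for Spen and 0.29 for Psen2, and 3 of these were within 2 errors. A match in letters is not a bound site.

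**Figure D5:**
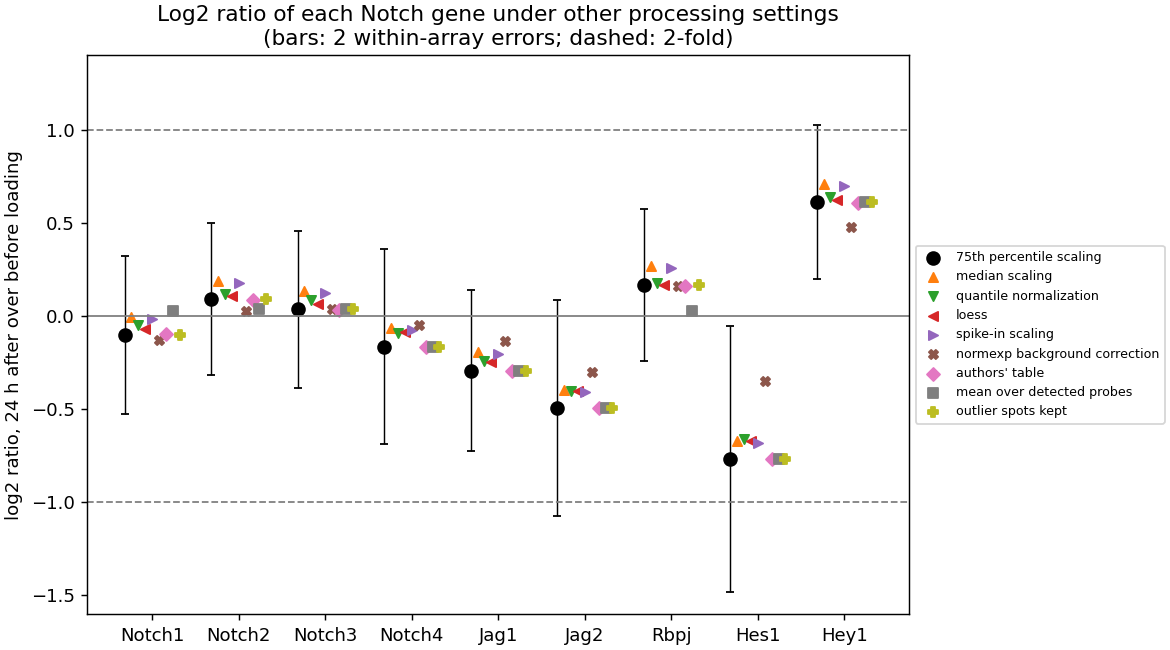
Log2 ratio of each detected Notch gene under the reported processing and under each alternative, 1 point per setting, with bars of 2 within-array errors on the reported value and dashed lines at 2-fold. Hey1 stays above 0, Jag1, Jag2 and Hes1 stay below it, and Hes1 has the widest spread, from -0.77 to -0.35.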

How the data were processed

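The authors hybridised Cy3-labelled total RNA of each time point to 1 Agilent array and deposited the Feature Extraction 10.10.1.1 intensity of each spot, background-subtracted and not normalized between arrays; their own table holds the same intensities, rounded, with differences of at most 0.497%. Outlier spots (141 and 138) were left out, log2 intensities were averaged over spots of a probe and set relative to each array's 75th percentile. Accessions were named through RefSeq (GRCm38.p6, names only), 27235 of 55678 probes matching, and the brightest probe represents a gene. Detected means well above background on both arrays. Detection and errors limit precision, as does the number of arrays.

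Named are all 10 Notch genes, the 5 highest and 5 lowest of the pathway list, the remaining Hes, Hey and Delta-like genes, and markers. Others, the repeated-probe SD (268 probes with at least 8 spots), the radius of 100 µm and the motifs were chosen after values were seen. The members and lists were chosen with earlier results of these data known. Alternatives were median, quantile, loess and spike-in scaling (245 spots), normexp correction with offset 50, the authors' table, the mean over detected probes, outlier spots kept and other filters on dim probes. R 4.3.3 with limma 3.58.1 and Python 3.11.15 were used. The script that makes the calls was checked on simulated data, which bears on its arithmetic and not on the spread between cultures.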

Additional observations from a re-analysis of the deposited data

How the results depend on the processing

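Over 8 alternatives the ratio of Hey1 was 0.48 to 0.71, beyond 2 errors each time. Of 72 recomputed ratios of the Notch genes 71 moved by less than 1 within-array error. For genes with 1 probe, the authors' table, the mean over probes and kept outlier spots could hardly move a ratio. Notch1 turned to 0.03 as the mean over its probes. With normexp correction the ratio of Hes1 was -0.35, Rbpjl -0.83, Kat2b 0.35 and Maml3 0.45. The number of Notch genes lower by more than 2 errors, 1 as reported (Hes1), was 0 under median, quantile, loess and spike-in scaling and under normexp correction. Median scaling shifted every ratio by 0.10 and spike-in scaling by 0.09, which by construction adds to the higher side: genes higher by more than 2 errors numbered 1639 and 1570, and the share higher among genes beyond 2 errors went from 44.2% to 64.3% and 62.5%, and beyond 2-fold from 26.8% to 38.8% and 37.3%. In the pathway list, an alternative count added after seeing the data, 8 were higher and 2 lower under median scaling. There were 2 lower under spike-in scaling, and 3 higher and 2 lower under normexp correction. Dtx1 and Fbxw7 were lost each time, and Poglut1 and Kat2b were lost under normexp. Furin, Psenen and Maml2 were gained under median scaling. Normexp correction left 0 pathway genes more than 2-fold lower. Over all genes it left 38 more than 2-fold higher, 118 more than 2-fold lower and 811 lower by more than 2 errors. Its offset of 50 is added to every intensity, which by construction draws ratios of dim probes towards 0, and the errors were not recomputed. How much of the change came from the offset was not tested. Without a filter on dim probes 2 pathway genes were more than 2-fold lower (Dner and Rbpjl), with 492 higher and 983 lower over all genes, and with detection on at least 1 array 2 (the same genes), 192 and 507, as more genes enter. No paired analysis was possible because each time point has 1 array. Genes near background, Hes1 at 24 h among them, have the largest errors, and Dll1 and 8 pathway genes gave no ratio.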
